A study of Mus musculus with 33 samples.

Results

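The 41 genes described here encode the matrix that fibroblasts make and the proteins by which fibroblasts are usually recognised. They were taken by symbol, in current or older form such as Ctgf for Ccn2, as a set of collagens, matrix glycoproteins, proteoglycans, cross-linking enzymes, CCN proteins and contractile or surface proteins. A gene was kept if any of its probes reached a detection p under 0.01 on 2 or more of the 10 fibroblast arrays. Of the 41 genes, 37 had a named probe and 36 were above background, out of 9109 genes tested in fibroblasts. Col6a2, Col6a3, Col12a1 and Fbn1 had no probe named here, and Fbln5 was not above background on any fibroblast array.

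The values came from 33 Illumina bead arrays of total RNA from C57BL/6 mouse cells, with 1 array for each condition. The fibroblasts were primary mouse embryonic fibroblasts (MEF), kept in medium with serum at low passage. They comprised p50KO cells, which lack the NF-kB subunit p50, at 0, 1, 3 and 8 h of lipopolysaccharide (LPS), WT cells at the same 4 times of LPS, and WT cells at 0 and 8 h of interferon beta (IFNb). The contrast was bone marrow-derived macrophages (BMDM): p50KO cells at 0, 1, 3 and 8 h of CpG and at 1, 3 and 8 h of LPS or IFNb, IFNARKO cells, which lack the type I interferon receptor, at 0 and 3 h of LPS, and WT cells at 0, 1, 3 and 8 h of CpG or LPS and at 1, 3 and 8 h of IFNb. Separate cultures or animals are not named in the labels, and the p-values below therefore cover the spread between these arrays only, which may be technical.

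Fibroblasts secrete collagen chains that assemble into fibrils outside the cell, are cross-linked by lysyl oxidases, and are spaced and decorated by small proteoglycans such as decorin and lumican. Matricellular proteins, among them thrombospondins, tenascin C, periostin and the CCN family, are not structural fibres but bind matrix, receptors and growth factors. LPS acts on fibroblasts through a Toll-like receptor and NF-kB, and p50 is an NF-kB subunit that can act as an activator with a partner or as a repressor when paired with itself.

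Between 8266 and 12389 probes were above background on a fibroblast array: 11735 to 12389 in p50KO, 8266 to 8959 in WT of the LPS series and 10038 to 10089 in WT of the IFNb series. The label of the cells was checked against marker lists. All 11 fibroblast markers were above background, and 0 of 7 epithelial and 0 of 5 adipocyte markers were. So were 2 of 7 endothelial, 4 of 7 muscle, 4 of 5 cartilage and 4 of 6 neural markers. Of these lists Myod1, Myog, Des, Matn1 and Sox10 were not above background. The muscle markers Smtn and Acta1 and the cartilage markers Sox9 and Acan were above it on all 10 arrays, and the neural marker Tubb3 on 9. Of 10 macrophage markers, 8 had a probe and 6 were above background, with Itgam and Fcer1g below it. Adgre1, Cd14, Lyz2 and Laptm5 were above background on all 10 arrays, Tyrobp on 7 and Ptprc on 2. The summed macrophage marker intensity was 8407 to 9757 in p50KO, 6443 to 8013 in WT of the LPS series and 13054 to 16147 in WT of the IFNb series, and the summed muscle marker intensity was 319 to 669, 430 to 986 and 1345 to 2226 in the same order. For cartilage the sums were 661 to 1547, 1002 to 2021 and 982 to 1795, and for neural markers 174 to 203, 196 to 271 and 131 to 148. Between p50KO and WT of the LPS series 1 of 4 muscle, 1 of 4 cartilage and 1 of 4 neural markers were called higher and 2, 2 and 3 lower, among them Acan (-1.35) and Col2a1 (-0.81). Of 6 macrophage markers 4 were called higher and 2 lower (66.7% and 33.3%, beside 33.9% and 40.6% of all genes). Adgre1 (1.34), Tyrobp (1.21) and Laptm5 (1.03) were among the higher ones, and Cd14 (-0.60) among the lower. The part of these markers in the results below was not tested. Genotypes are as labelled, with no check against the disrupted gene itself, which was not analysed here.

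**Figure D1:**
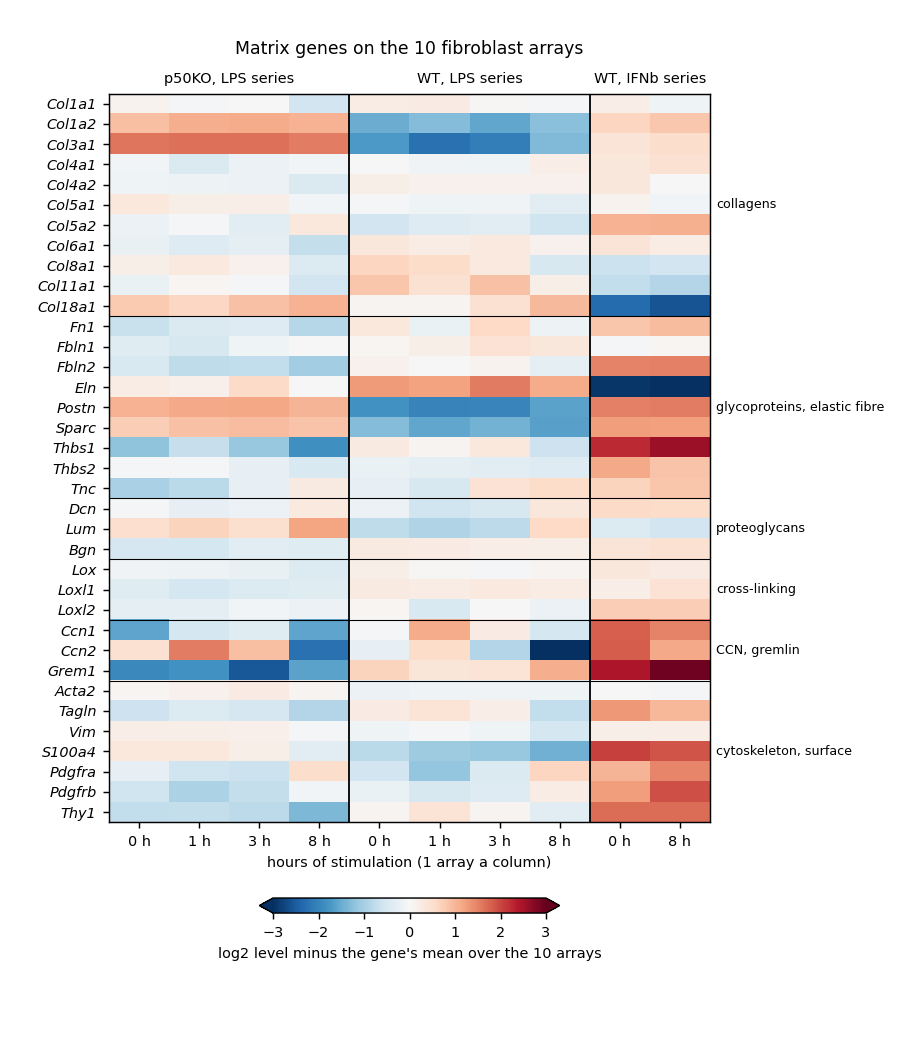
Levels of the 36 matrix genes on the 10 fibroblast arrays, as the log2 level minus the mean of the gene over the 10 arrays (colour), with genes grouped by role and arrays by genotype, series and hours. Col1a2, Col3a1, Postn and Sparc are low in WT cells of the LPS series and high elsewhere, Ccn2 is lowest at 8 h of LPS in both genotypes, and Eln lies near or beyond the end of the colour scale on the arrays of the IFNb series.

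At 8 h of LPS the fibroblasts had less RNA for Ccn2 and Col8a1 and more for Tnc under every alternative setting run. Col1a1, Col5a1, Col11a1, Fbln2, Thbs1, S100a4, Tagln and Thy1 were also called lower. Lum, Dcn, Col18a1 and the PDGF receptors Pdgfra and Pdgfrb were also called higher. Each of these other calls was lost under at least 1 alternative. Over both genotypes 16 of the 36 genes were called (44.4%), 6 higher and 10 lower, beside a background of 36.5% of all genes tested (12.7% higher and 23.9% lower). The call is an adjusted p under 0.05 in a two-sided limma fit with genotype as a term, in which 8 h is set against 0 h over both genotypes. The share of the matrix genes was thus near that of all genes, and their median size of change, 0.33 on the log2 scale, lay beside 0.30 for all genes. Changes of at least 2-fold were called for 3 of the 36, Ccn2, Tnc and Lum, beside 10.5% of all genes. Fibroblasts without LPS at 1, 3 or 8 h were not analysed here, so LPS and time in culture cannot be told apart, nor can fewer cells of a type and less RNA per cell. Of other cell markers, 2 of 4 muscle, 1 of 4 cartilage and 1 of 4 neural genes fell at 8 h and 0 rose. The muscle genes were Smtn (-1.19 ± 0.13) and Acta1 (-1.04 ± 0.20). The others were the cartilage factor Sox9 (-1.34 ± 0.24) and the neural gene Map2 (-0.92 ± 0.22). Of 6 macrophage markers 1 rose, Cd14 (3.18 ± 0.14), and 1 fell, Laptm5 (-0.87 ± 0.11). The part of these markers was not tested. The count of 16 called matrix genes fell to 5 without the WT array at 0 h. It was 7 without the p50KO array at 0 h and 9 without the p50KO array at 8 h.

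Ccn2, connective tissue growth factor, is a secreted CCN protein that promotes matrix production and is a textbook target of TGF-beta and of the YAP coactivators. Its log2 level in p50KO cells was 11.75, 12.81, 12.20 and 9.05 at 0, 1, 3 and 8 h of LPS, and in WT cells 11.04, 11.83, 10.41 and 8.23. The 8 h arrays were the lowest of each genotype, and the 1 h arrays the highest. At 8 h Ccn2 fell by 2.75 ± 0.25 on the log2 scale (SE, adjusted p = 0.000281), which is 6.75-fold. At 1 h the difference was 0.92 ± 0.25 and did not pass (adjusted p = 0.418). Its relative Ccn1, an immediate-early matricellular gene, had 6.29, 7.34, 7.49 and 6.30 in p50KO and 7.82, 8.99, 8.12 and 7.34 in WT cells. The Ccn1 difference at 1 h was 1.11 ± 0.24 (adjusted p = 0.235) and at 8 h -0.24 ± 0.24 (adjusted p = 0.472), so neither passed.

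Tenascin C, a glycoprotein of wounds and inflamed tissue that is itself a known ligand of a Toll-like receptor, was the sole matrix gene called at 3 h. Tnc had 11.32, 11.50, 12.05 and 12.58 in p50KO cells and 12.05, 11.83, 12.74 and 12.85 in WT cells at 0, 1, 3 and 8 h. The 3 h and 8 h arrays lay above the 0 h and 1 h arrays in each genotype. Tnc rose by 0.71 ± 0.15 at 3 h (adjusted p = 0.0162) and by 1.03 ± 0.15 at 8 h (adjusted p = 0.00197). The 3 Tnc probes above background in both genotypes all gave a positive difference at 8 h, from 0.88 to 1.18.

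Lum and Dcn encode small leucine-rich proteoglycans that bind collagen fibrils. Lum had 11.16, 11.32, 11.13 and 11.85 in p50KO cells and 9.91, 9.76, 9.87 and 11.27 in WT cells, with only the 8 h array standing above the others in each genotype. It rose by 1.03 ± 0.22 (adjusted p = 0.00967). Dcn had 12.45, 12.27, 12.34 and 12.80 in p50KO cells and 12.32, 11.90, 12.03 and 12.86 in WT cells, again highest at 8 h. It rose by 0.44 ± 0.13 by its brightest probe (adjusted p = 0.0404), and its other 3 probes gave 0.65, 0.77 and 1.01. The third member of this class here, Bgn, was flat at 0.01 ± 0.12.

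Pdgfra and Pdgfrb, the receptors through which PDGF drives fibroblast growth and migration, were both higher at 8 h. Pdgfra had 10.44, 10.08, 10.05 and 11.21 in p50KO cells and 10.12, 9.51, 10.25 and 11.32 in WT cells, and the 8 h arrays lay above all earlier ones. Its rise was 0.99 ± 0.19 (adjusted p = 0.00746). Pdgfrb had 7.96, 7.61, 7.84 and 8.48 in p50KO cells and 8.36, 8.09, 8.18 and 8.78 in WT cells, and rose by 0.47 ± 0.11 (adjusted p = 0.0133). Col18a1, a basement membrane collagen and the source of endostatin, had 12.34, 12.20, 12.44 and 12.62 in p50KO cells and 11.65, 11.65, 12.02 and 12.54 in WT cells. It rose by 0.59 ± 0.16 (adjusted p = 0.0255), and the 8 h array of either genotype lay above the 0 h arrays of both.

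Among the collagens, Col8a1, a short-chain collagen of vessel walls and the cornea, fell most. It had 10.83, 10.95, 10.77 and 10.25 in p50KO cells and 11.28, 11.20, 10.95 and 10.17 in WT cells, with 8 h the lowest in each. Col8a1 fell by 0.84 ± 0.14 (adjusted p = 0.00401). Col11a1, a minor fibrillar chain, fell by 0.52 ± 0.16 (adjusted p = 0.0425) and was above background on 4 p50KO arrays but on 2 of 4 WT arrays of that series. Col11a1 missed the threshold with an offset of 50, no background correction or no filter on detection. Col1a1, the main chain of type I collagen, had 13.40, 13.22, 13.30 and 12.73 in p50KO cells and 13.52, 13.54, 13.33 and 13.23 in WT cells. Col1a1 fell by 0.48 ± 0.14 (adjusted p = 0.0344), whereas Col1a2, its partner chain, had 0.19 ± 0.12 and did not pass (adjusted p = 0.266). Col5a1, a chain that sets fibril diameter, fell by 0.34 ± 0.10 (adjusted p = 0.0369), but had a difference of 0.027 on the values normalized by the authors.

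Thbs1, a matricellular protein known for activating latent TGF-beta, had 8.58, 9.10, 8.65 and 7.95 in p50KO cells and 10.06, 9.87, 10.10 and 9.15 in WT cells at 0, 1, 3 and 8 h. The 8 h array was the lowest of each genotype, and Thbs1 fell by 0.77 ± 0.18 (adjusted p = 0.0156). S100a4, a calcium-binding protein also called fibroblast-specific protein, had 10.76, 10.77, 10.64 and 10.15 in p50KO cells and 9.66, 9.39, 9.32 and 9.01 in WT cells. S100a4 fell by 0.63 ± 0.12 (adjusted p = 0.00609). Tagln, an actin-binding protein of contractile cells, had 9.08, 9.27, 9.19 and 8.83 in p50KO cells and 9.94, 10.10, 9.90 and 8.95 in WT cells. The lowest Tagln array was that at 8 h in each genotype, though the p50KO change was -0.26 and the WT change -0.99. Tagln fell by 0.62 ± 0.19 (adjusted p = 0.037), while Acta2, smooth muscle actin, was flat at 0.02 ± 0.10.

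Thy1, a surface glycoprotein used to sort fibroblasts, had 11.93, 11.96, 11.89 and 11.32 in p50KO cells and 12.77, 13.08, 12.77 and 12.35 in WT cells, and fell by 0.51 ± 0.12 (adjusted p = 0.0134). Fbln2, a fibulin of elastic fibres and basement membranes, had 12.65, 12.34, 12.38 and 12.07 in p50KO cells and 13.23, 13.12, 13.22 and 12.84 in WT cells. It fell by 0.48 ± 0.11 (adjusted p = 0.0148) on its brightest probe and was flat at 0.01 on its other probe. Col1a1, Fbln2, Tagln and Thy1 kept their direction but missed the threshold on the values normalized by the authors, as did Col1a1, Col5a1 and Pdgfrb with array medians made equal. The other 20 genes were not called at 8 h and had differences between -0.34 and 0.39, among them Fn1 (-0.32 ± 0.19), Sparc (-0.11 ± 0.14), Postn (0.08 ± 0.15) and Lox (-0.20 ± 0.12). Under every alternative setting run, Ccn2, Tnc and Col8a1 kept the call.

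**Figure D2:**
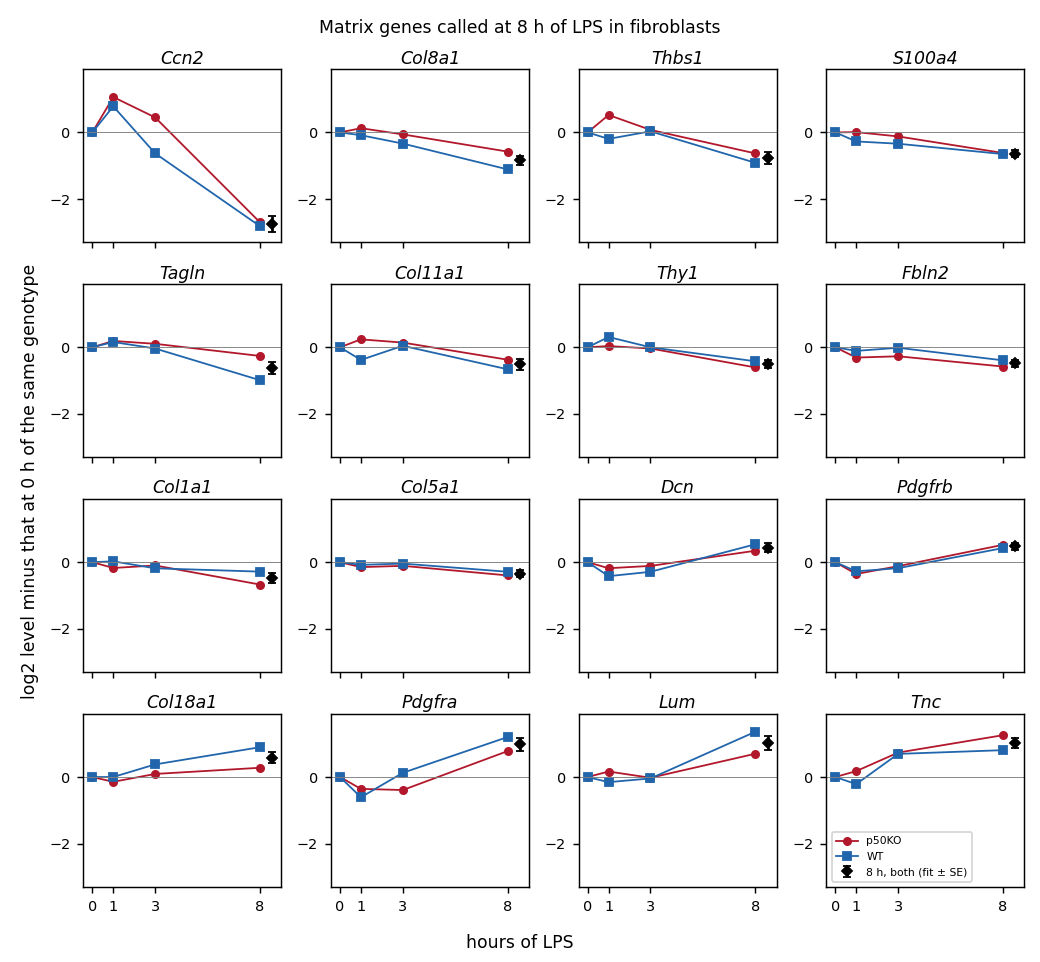
Time course of the 16 matrix genes called at 8 h of LPS in fibroblasts, as the log2 level minus that at 0 h of the same genotype against hours of LPS, with 1 array a point (p50KO circles, WT squares) and the fitted difference at 8 h with its standard error (diamond). Ccn2 lies at -2.70 in p50KO and -2.81 in WT cells at 8 h, and the other genes lie between -1.11 and 1.36.

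The promoters of a gene that rose and of one that fell at 8 h, Tnc and S100a4, are shown as the 250 bases before the RefSeq start site (GRCm38.p6, 5′ to 3′ on the strand of the gene), with every TATAAA in capitals. That of Tnc is chr4:64047016-64047265 on the minus strand, and that of S100a4 is chr3:90603520-90603769 on the plus strand.
Tnc: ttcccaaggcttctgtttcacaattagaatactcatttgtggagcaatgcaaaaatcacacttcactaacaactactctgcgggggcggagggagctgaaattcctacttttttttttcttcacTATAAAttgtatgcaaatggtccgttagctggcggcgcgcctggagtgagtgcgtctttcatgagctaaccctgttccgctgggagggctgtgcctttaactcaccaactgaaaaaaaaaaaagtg
S100a4: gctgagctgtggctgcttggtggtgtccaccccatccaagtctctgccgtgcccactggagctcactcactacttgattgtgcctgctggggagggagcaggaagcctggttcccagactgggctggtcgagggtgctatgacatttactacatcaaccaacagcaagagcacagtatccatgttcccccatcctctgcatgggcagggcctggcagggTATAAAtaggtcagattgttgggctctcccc
The TATAAA of S100a4 lies 31 to 26 bases before the start site, and that of Tnc 126 to 121 bases before it. Of the 41 genes, 26 had an entry in the promoter table, and the entry nearest the gene start was read for each. The share of all promoters counts every entry, so a gene with several entries counts several times. In these windows, read on both strands, TATAAA was found in 6 of the 26 (23.1%) and in 12.4% of 32851 promoters. CCAAT was found in 9 (34.6%) and in 33.8%. These letters do not overlap each other. The CArG box, the site named for serum response factor, was searched only in its exact form CCWWWWWWGG, with W for A or T. That form was found in 0 of the 26 and in 1.47% of all promoters. Variants with a changed letter, such as ccctatatgg in the Acta2 window, were not counted, so a CArG-like site is not excluded. The NF-kB consensus was found in 2, Thbs2 and Vim (7.69%), and in 3.9% of all. A match of letters is a description of the window and not a binding site.

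At the earlier times few matrix genes moved. At 1 h of LPS 0 of 36 were called, beside 0.582% of all genes (53 genes, limma), and 4 had an unadjusted p under 0.05, beside 5.73% of all genes: Ccn1 and Ccn2 higher, Pdgfra (-0.48) and Pdgfrb (-0.32) lower. At 3 h Tnc alone was called, 2.78% of the members beside 19.3% of all genes. The cells responded to LPS at those times: Cxcl1, a neutrophil chemokine, had 13.26 at 1 h and 8.42 at 0 h in p50KO cells, and 13.29 at 1 h and 8.42 at 0 h in WT cells.

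Genes that build or bind the matrix but are outside the 41 were counted in lists. Of 36 other matrix glycoproteins and proteoglycans measured, 6 rose and 7 fell at 8 h (16.7% and 19.4%, beside 12.7% higher and 23.9% lower of all genes), with a median of -0.08, beside -0.10 for all genes. Has2, a hyaluronan synthase, had 7.09, 7.67, 11.60 and 9.07 in p50KO and 7.41, 7.76, 10.85 and 8.91 in WT cells at 0, 1, 3 and 8 h. Has2 rose by 3.97 ± 0.23 at 3 h (adjusted p = 8.04e-05) and by 1.74 ± 0.23 at 8 h (adjusted p = 0.00152). The 3 h arrays were the highest in both genotypes. Has1, a second hyaluronan synthase, was not above background at 0 h and was at least 4.41-fold higher at 3 h (adjusted p = 0.00085).

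Of 20 genes of collagen folding and processing, 2 rose and 3 fell at 8 h (10% and 15%). Plod2, a lysyl hydroxylase that prepares collagen for cross-linking, rose by 1.00 ± 0.11 (adjusted p = 0.000666), and P4ha2, a prolyl hydroxylase, by 0.84 ± 0.17 (adjusted p = 0.00765). Of 13 other collagens 2 rose and 1 fell (15.4% and 7.69%). Of 16 integrins and matrix receptors 4 rose and 3 fell (25% and 18.8%), led by the syndecan Sdc3 (1.20 ± 0.16) and by Itga11, a collagen-binding integrin chain (-0.82 ± 0.14).

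Of 13 genes of the TGF-beta pathway 1 rose and 4 fell at 8 h (7.69% and 30.8%): the corepressor Tgif1 rose by 0.81 ± 0.12, and the ligands Tgfb3 (-1.03 ± 0.17) and Tgfb2 (-0.81 ± 0.16) and the receptor Tgfbr1 (-0.74 ± 0.12) fell. Of 18 actin cytoskeleton genes and SRF or YAP targets 3 rose and 9 fell (16.7% and 50%, beside 12.7% and 23.9% of all genes), with a median of -0.37. Srf, which encodes serum response factor, had 10.19, 10.98, 9.27 and 8.99 in p50KO cells and 10.51, 10.96, 9.40 and 9.34 in WT cells. Srf was highest at 1 h in each genotype and fell by 1.02 ± 0.13 at 3 h (adjusted p = 0.00231) and by 1.18 ± 0.13 at 8 h (adjusted p = 0.000636). Ankrd1 (-0.83 ± 0.20) and Cnn2 (-0.78 ± 0.14) also fell, and Tagln2 rose by 1.12 ± 0.13. The median of all genes at 8 h moved with the scaling, -0.10 here, -0.21 with array medians made equal and -0.01 on the values normalized by the authors. Of all genes called at 8 h, the share that was higher was 34.7% here, 24.9% and 46.5% under those scalings.

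Whether the response of the matrix genes to LPS differed between p50KO and WT fibroblasts was tested as the interaction of genotype with stimulation. The test covered the mean response over 1, 3 and 8 h against 0 h, with 1 array at 0 h per genotype. A difference at a single time was not tested. Of the 36 genes 0 were called, beside 0% of all genes (limma, 0 of 9109), and 0 of the 36 and 296 of all genes (3.25%) had an unadjusted p under 0.05. The largest interaction among them was 0.49 ± 0.39 for Ccn2, and the standard errors of the 36 genes lay between 0.18 and 0.41, with a median of 0.22. The 8 h change of Ccn2 was -2.70 in p50KO and -2.81 in WT cells, and that of Tnc was 1.25 in p50KO and 0.81 in WT cells. Of 10 LPS or interferon response genes measured, Cxcl1 and Rsad2 among them, 0 were called either, with a median interaction of 1.13. Differences of that size thus went uncalled, and 0 calls do not show equal responses.

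In WT fibroblasts IFNb for 8 h left the matrix genes within 2-fold of 0 h. With 1 array at each time there is no test. Of the 36 genes 0 differed by at least 2-fold, beside 5.02% of all genes, and their median size of difference was 0.15, beside 0.25 for all genes. Pdgfrb had 10.50 at 8 h and 9.81 at 0 h, and Ccn2 had 12.41 at 8 h and 13.10 at 0 h. These were the 2 genes past 1.5-fold, and the others lay between -0.36 and 0.48. The cells had responded: Cxcl10, an interferon-induced chemokine, had 13.79 at 8 h and 4.84, not above background, at 0 h, and Rsad2, an antiviral effector, 14.09 at 8 h and 5.72 at 0 h. Outside the 41 genes, Loxl3, a lysyl oxidase-like enzyme, was not above background at 0 h and was at least 4.07-fold higher at 8 h. Srf had 9.46 at 8 h and 10.47 at 0 h.

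Between p50KO and WT fibroblasts of the LPS series, Col3a1, Postn, Col1a2 and Sparc were at least 4-fold higher in p50KO cells, and Grem1 at least 4-fold lower. Col3a1 and Postn are given by their brightest probes. Col1a2, Sparc and Grem1 had 1 probe each, so no other probe could be set against it. For Col3a1 the mean of its probes gave a difference of 1.84 on the log2 scale, under 4-fold. Over the 4 matched times 29 of the 36 genes were called (80.6%), 12 higher and 17 lower, beside 74.5% of all genes tested (33.9% higher and 40.6% lower). The share was again near that of all genes. Calls of at least 2-fold were made for 11 of the 36 (30.6%), beside 18% of all genes, and of at least 4-fold for 5 (13.9%), beside 4.44%. Each genotype had 1 array a time, so the error is the spread of the difference between times. The labels do not say whether the genotypes were separate cultures, and genotype and culture cannot be told apart.

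Col3a1, the chain of type III collagen, had 12.73, 12.77, 12.78 and 12.65 in p50KO cells and 9.40, 8.88, 9.06 and 9.80 in WT cells at 0, 1, 3 and 8 h of LPS. The groups were far apart at every time, by 3.45 ± 0.17 (adjusted p = 3.71e-06), but its second probe, above background on all 10 arrays, gave 0.24. Postn encodes periostin, a matricellular protein of collagen-rich tissue. It had 10.01, 10.08, 10.13 and 9.97 in p50KO cells and 7.14, 6.95, 6.96 and 7.34 in WT cells, a difference of 2.95 ± 0.11 (adjusted p = 1.12e-06). Col1a2, the second chain of type I collagen, had 12.08, 12.25, 12.29 and 12.22 in p50KO cells and 9.68, 9.87, 9.63 and 9.92 in WT cells, a difference of 2.44 ± 0.09 (adjusted p = 1.03e-06). Its partner chain Col1a1 had -0.24 ± 0.10 and was not called (adjusted p = 0.0569). Sparc, a collagen-binding glycoprotein, had 12.19, 12.33, 12.39 and 12.32 in p50KO cells and 10.16, 9.91, 10.05 and 9.82 in WT cells, a difference of 2.32 ± 0.10 (adjusted p = 2.03e-06).

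Grem1, a secreted antagonist of BMP ligands, had 7.37, 7.50, 6.76 and 7.71 in p50KO cells and 9.98, 9.67, 9.73 and 10.41 in WT cells. It was lower in p50KO cells at every time, with a difference of -2.61 ± 0.13 (adjusted p = 4.19e-06). S100a4 (1.24 ± 0.08), Lum (1.17 ± 0.15) and Ccn2 (1.07 ± 0.17) were higher, from the array values given above. Thbs1 (-1.22 ± 0.13) and Ccn1 (-1.21 ± 0.17) were lower, but with the mean of its probes Ccn1 had -0.089 and lost the call (adjusted p = 0.617). Eln, which encodes elastin, had 9.20, 9.14, 9.57 and 8.99 in p50KO cells and 10.27, 10.20, 10.55 and 10.10 in WT cells, a difference of -1.06 ± 0.07 (adjusted p = 1.94e-05).

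The remaining called genes differed by less than 2-fold. The lower ones by role were the collagens Col11a1 (-0.78), Col6a1 (-0.65) and Col4a2 (-0.37), the glycoproteins Fbln2 (-0.74), Fn1 (-0.73), Tnc (-0.51) and Fbln1 (-0.50), the proteoglycan Bgn (-0.66), the cross-linking enzymes Loxl1 (-0.67) and Lox (-0.28), and Thy1 (-0.96), Tagln (-0.63) and Pdgfrb (-0.38). The higher ones were Col18a1 (0.44), Vim (0.32), Col5a1 (0.32), Acta2 (0.26) and Col5a2 (0.42). Col5a2 was above background on 1 of the p50KO arrays and on 0 of the WT arrays of that series, so its 0.42 is not a measured fold. With array medians made equal Lox (-0.095, adjusted p = 0.36), Col4a2 (-0.13, adjusted p = 0.271) and Col5a2 (0.32, adjusted p = 0.0991) were no longer called. Col1a1, Col4a1, Col8a1, Thbs2, Dcn, Loxl2 and Pdgfra were not called, with differences between -0.24 and 0.18. Postn, S100a4, Col11a1 and Ccn1 are on chromosome 3, as is the disrupted gene, and for these an effect of p50 and of linked sequence cannot be told apart.

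WT fibroblasts also differed between the array series. Before stimulation, 20 of the 36 genes (55.6%) differed by at least 2-fold between the WT array of the IFNb series and that of the LPS series, 16 higher and 4 lower, beside 16.2% of all genes (9.81% higher and 6.41% lower). Between p50KO and WT of the LPS series before stimulation 11 of 36 did (30.6%), beside 17.3%. Between p50KO and WT of the IFNb series 18 of 36 did (50%), beside 19.4%. No treatment had been given on any of these 3 arrays, and the comparisons share arrays and have no test.

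Col1a2 before stimulation was 12.08 in p50KO cells, 11.83 in WT cells of the IFNb series and 9.68 in WT cells of the LPS series. Postn was 10.01 in p50KO cells, 10.47 in WT of the IFNb series and 7.14 in WT of the LPS series. Sparc was 12.19 in p50KO cells, 12.72 in WT of the IFNb series and 10.16 in WT of the LPS series. For these genes WT cells of the IFNb series were near or above p50KO cells, and WT of the LPS series stood apart. Eln was 9.20 in p50KO cells, 6.07 in WT of the IFNb series and 10.27 in WT of the LPS series, and Col18a1 was 12.34, 9.25 and 11.65 in the same order. For Eln and Col18a1 it was WT of the IFNb series that stood apart.

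Against all 6 WT arrays, the 4 p50KO arrays did not overlap for 13 of the 36 genes (36.1%), beside 32.5% of all genes (16.6% above and 15.9% below). Col1a2, by its 1 probe, and Col3a1 and Acta2, by their brightest probes, lay above all WT arrays. The lowest p50KO and highest WT arrays had 12.08 and 11.99 for Col1a2 and 14.87 and 14.83 for Acta2. The second Col3a1 probe averaged 8.05 in p50KO cells and 8.15 in WT of the IFNb series. The other Acta2 probes averaged 13.29 and 11.54 in p50KO cells, and 13.46 and 12.09 in WT of the IFNb series. Col4a2, Col6a1, Fn1, Fbln2, Thbs1, Bgn, Lox, Loxl1, Grem1 and Thy1 lay below. Among these, Col6a1, Fn1 and Fbln2 are given by their brightest probes, and the rest had 1 probe each. Another Fn1 probe averaged 9.40 in p50KO cells and 7.38 in WT of the LPS series. Grem1 had 7.33 on average in p50KO cells, 9.95 in WT of the LPS series and 11.99 in WT of the IFNb series, and Thbs1 had 8.57, 9.80 and 12.19. For Grem1 and Thbs1 p50KO cells were thus lowest, but the WT series differed from each other by more than 2 on the log2 scale. A fit of all 10 arrays without a term for the series, added after seeing the data, called 19 of the 36 genes in place of 29. Of all 9109 genes it called 4968 in place of 6790, so the calls of all genes fell as well.

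**Figure D3:**
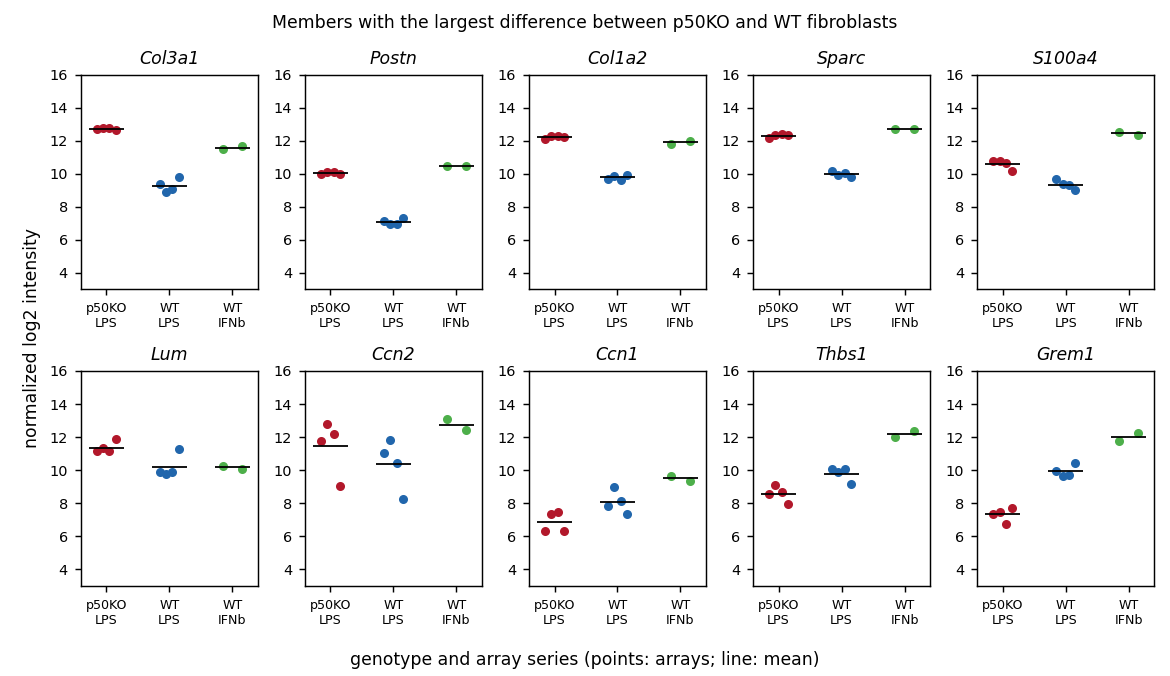
Normalized log2 intensity of the 10 matrix genes with the largest difference between p50KO and WT fibroblasts of the LPS series, for p50KO arrays of the LPS series, WT arrays of the LPS series and WT arrays of the IFNb series, with 1 point an array and the mean as a line. WT arrays of the IFNb series lie near or above the p50KO arrays for Postn, Col1a2 and Sparc, and above both other groups for S100a4, Ccn1, Thbs1 and Grem1.

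The probes of a gene also gave different answers for the genotype difference. A probe is set against another here only if it was above background on at least 1 array of p50KO and of WT in the LPS series, a choice made after seeing the data. Of the 8 genes with at least 2 such probes, 3 had probes more than 1 apart on the log2 scale in p50KO minus WT (37.5%), beside 30.9% of 1170 such genes. Probes of opposite sign were found for 2 of the 8, beside 483 of the 1170. For the 8 h change with LPS 0 of the 8 had probes more than 1 apart, beside 2.82%, and 3 had probes of opposite sign, beside 227 of the 1170. The probes of Ccn1 gave -1.21 and 1.03. Fn1, fibronectin, had probes at -0.73, -0.19 and 2.03, and Tnc had probes from -1.21 to -0.51. The second probes of Postn and Fbln1 were not above background in WT of the LPS series and were at least 3.54-fold and at least 1.77-fold higher in p50KO cells. The sign of Fbln1 thus differed between its probes, with -0.50 for the brightest. Taking the mean of the probes, including those not above background in WT, turned Fn1 to 0.20 and Fbln1 to 0.75 and moved Acta2 to 0.51.

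**Figure D4:**
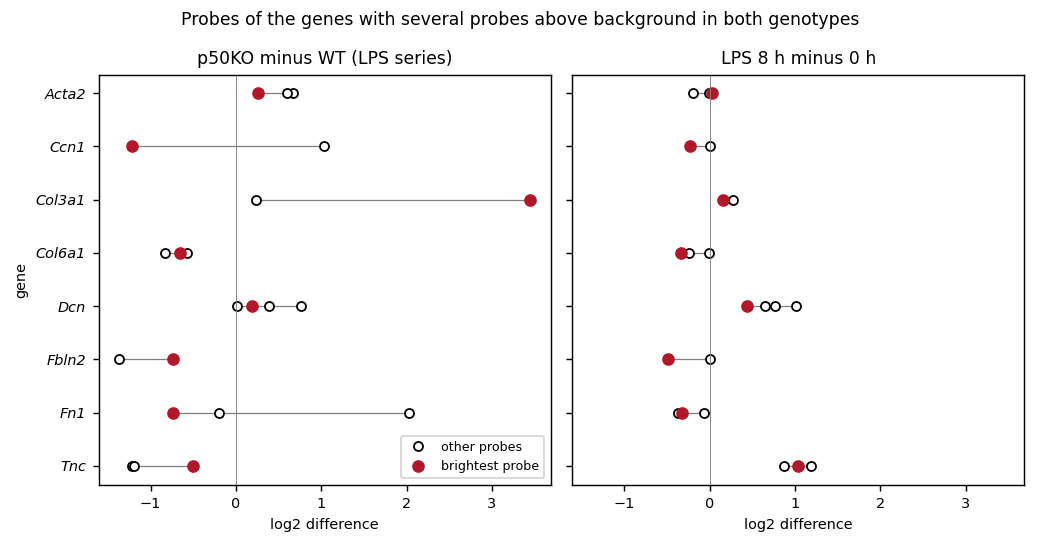
Log2 difference of each probe above background in both genotypes, for the 8 matrix genes with several such probes, p50KO minus WT over the LPS series (left) and LPS 8 h minus 0 h (right), with the brightest probe filled. Probes of Ccn1, Col3a1 and Fn1 spread over more than 2 log2 units in the genotype difference and within 1 log2 unit in the LPS response.

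Col1a2, by its 1 probe, and Col3a1, by its brightest probe, were the collagen chains above all WT arrays in p50KO cells. Their promoters are shown in the same way, with CCAAT and TATAAA in capitals. That of Col1a2 is chr6:4505368-4505617 and that of Col3a1 is chr1:45311288-45311537, both on the plus strand.
Col1a2: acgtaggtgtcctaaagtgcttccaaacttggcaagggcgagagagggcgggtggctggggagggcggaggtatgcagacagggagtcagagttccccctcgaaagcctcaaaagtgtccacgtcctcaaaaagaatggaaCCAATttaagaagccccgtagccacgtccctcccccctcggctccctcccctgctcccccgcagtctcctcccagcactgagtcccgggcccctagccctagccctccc
Col3a1: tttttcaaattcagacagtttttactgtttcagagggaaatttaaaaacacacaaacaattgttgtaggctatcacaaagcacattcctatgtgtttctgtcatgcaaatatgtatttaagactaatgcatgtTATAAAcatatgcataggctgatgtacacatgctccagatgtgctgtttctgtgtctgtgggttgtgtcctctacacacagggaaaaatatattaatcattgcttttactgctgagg
The Col1a2 window held CCAAT and no TATAAA, 109 to 105 bases before the start site. The Col3a1 window held TATAAA and no CCAAT, 117 to 112 bases before it. Neither held the exact form of the CArG box or the NF-kB consensus.

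The lists outside the 41 genes also differed between p50KO and WT fibroblasts. Of 20 genes of collagen folding and processing 2 were higher and 12 lower in p50KO cells (10% and 60%, beside 33.9% and 40.6% of all genes), with a median of -0.55, beside -0.07 for all genes. Among the lower ones were Crtap (-1.36 ± 0.08) and P3h1 (-1.02 ± 0.10), partners in prolyl 3-hydroxylation of collagen, Pcolce (-1.13 ± 0.10), an enhancer of procollagen cleavage, and Mia3 (-1.06 ± 0.08), which helps export procollagen from the endoplasmic reticulum. Of 13 other collagens 5 were higher and 6 lower (38.5% and 46.2%), and of 36 other glycoproteins and proteoglycans 13 were higher and 14 lower (36.1% and 38.9%). Ccn3, another CCN protein, and Aspn, asporin, were not above background in WT of the LPS series and were at least 7.09-fold (adjusted p = 3.08e-07) and at least 2.94-fold (adjusted p = 5.61e-07) higher in p50KO cells. Of 16 integrins and matrix receptors 3 were higher and 8 lower (18.8% and 50%), with Itga5, the alpha chain of a fibronectin receptor, at -1.94 ± 0.12. The limits of series and culture given for the matrix genes apply to these lists as well.

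In BMDM most of the matrix genes were not above background. They had been chosen by name as fibroblast genes, so this describes the set and is not a check of cell type. Of 36 with a probe there, 13 were above background on at least 2 of 23 arrays, out of 9161 genes tested, and 4 on every array: Col18a1, Acta2, Vim and S100a4. The share above background among all genes with a probe there was not counted. Col1a1, Col3a1, Postn, Lum, Pdgfra and Thy1 were above background on 0 of 23 BMDM arrays and on 10 of 10 fibroblast arrays. Ccn2, Bgn and Lox were above background on 19, 17 and 13 BMDM arrays. The arrays of the cell types were normalized apart and hold different probes, so levels are not compared between them. The p50KO array labelled LPS 1 h lay closest to WT at 3 h over 13 immediate-early genes (root mean square difference 0.66, against 2.31 with WT at 1 h), and it is called here by its label.

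Lox, the founding lysyl oxidase, was the matrix gene that differed most with LPS in WT macrophages, although Lox was not called at 8 h in fibroblasts. In fibroblasts it lay between 14.01 and 14.76, near the highest value of any matrix gene there (15.06, Acta2). A rise of Lox may thus have had little room to show in fibroblasts, which was not tested. In WT BMDM it had 5.12, 5.73, 6.81 and 9.27 at 0, 1, 3 and 8 h of LPS, a difference of 4.15 at 8 h with 1 array a time and no test. In p50KO BMDM it had 7.47, 10.08 and 10.47 on the arrays labelled 1, 3 and 8 h of LPS, and in IFNARKO BMDM 4.77 at 0 h and 8.08 at 3 h. In the LPS series of WT and of IFNARKO cells the 0 h array was the lowest. With CpG it had 4.65, 4.33, 5.73 and 7.52 in p50KO cells and 4.56, 4.51, 4.88 and 5.84 in WT cells, and with IFNb it stayed between 4.47 and 4.65 in p50KO cells and between 4.96 and 5.34 in WT cells.

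Thbs1 in WT BMDM had 4.60, 4.93, 5.89 and 7.31 at 0, 1, 3 and 8 h of LPS. It was not above background at 0 h and was at least 4.97-fold higher at 8 h, while it fell in fibroblasts. Col4a2, a basement membrane collagen chain, had 4.32, 4.42, 4.56 and 6.36 and was at least 2.59-fold higher at 8 h. In p50KO BMDM Col4a2 had 4.34, 6.24 and 6.00 at 1, 3 and 8 h. With measured values, 3 of the 13 genes differed by at least 2-fold at 8 h of LPS in WT BMDM (23.1%), beside 24.9% of all genes. In fibroblasts the 8 h differences of Lox (-0.20 ± 0.12) and Col4a2 (-0.17 ± 0.12) were not called.

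Between p50KO and WT macrophages, 1 of the 13 genes was called over 10 conditions, beside 0.448% of all genes. It was Bgn, biglycan, at -1.23 ± 0.22 (limma, adjusted p = 0.0223). The unstimulated condition was not matched by series, with p50KO from the CpG series and WT from the CpG and LPS series. There Bgn had 4.90 in p50KO cells, and 5.10 and 7.37 in WT cells of those series. Within the CpG series Bgn had 4.49 to 4.90 in p50KO cells, above background on 0 of 4 arrays, and 4.90 to 5.44 in WT cells, above background on 2 of 4. Within the LPS and IFNb series it had 5.58 to 6.05 in p50KO cells and 6.98 to 7.44 in WT cells. The WT arrays of these series were thus further apart than the genotypes. Bgn missed the threshold without the CpG, the IFNb or the LPS arrays. It was also lower in p50KO fibroblasts (-0.66 ± 0.08), where 40.6% of all genes were called lower. Ccn2, which just missed the call in BMDM (-1.19 ± 0.25, limma, adjusted p = 0.0528), was higher in p50KO fibroblasts (1.07 ± 0.17).

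**Figure D5:**
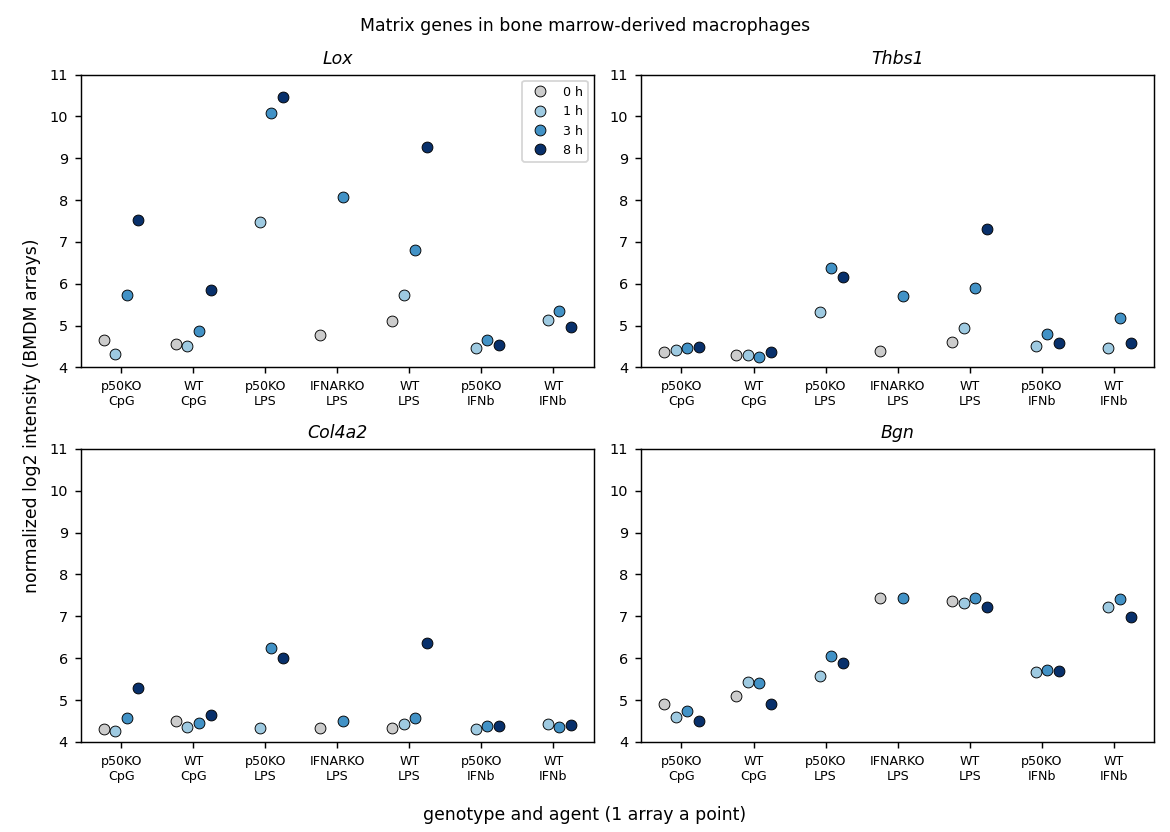
Normalized log2 intensity of Lox, Thbs1, Col4a2 and Bgn on the 23 BMDM arrays, by genotype and agent, with 1 point an array shaded by hours of stimulation. Lox is high at 3 and 8 h of LPS in p50KO cells and at 8 h in WT cells, and Bgn is higher on the WT and IFNARKO arrays of the LPS and IFNb series than on any array of the CpG series.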

How the data were processed

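The authors deposited linear, unnormalized bead intensity values for every probe and, beside them, per the file headers, a detection p-value against the negative controls of the array. BeadStudio is named in the submitters' processing notes, with no version. A second deposited set of intensity values, normalized by the authors in a way not given in the sources used here, served as an alternative. MEF and BMDM arrays were treated apart: normexp background correction with negative controls inferred from the detection p-values (limma nec, offset 16), quantile normalization and log2, so levels are normalized log2 intensities. Probes were named through the platform annotation, updated by a RefSeq gene table of GRCm38.p6, and the brightest probe above background stood for a gene. A gene entered if a probe reached a detection p under 0.01 on 2 or more arrays of that cell type. The number of arrays, not read depth, limits the precision.

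Tests were two-sided limma fits (lmFit and eBayes) over all genes with Benjamini-Hochberg adjustment and a call at an adjusted p under 0.05. In MEF the fit held the 8 arrays of the LPS series with genotype and time as terms, and in BMDM 21 arrays with 10 conditions and genotype. The interaction fit in MEF added 1 term, genotype by stimulated (1, 3 or 8 h against 0 h). Errors are standard errors of the fit. IFNb in MEF and LPS in WT BMDM had 1 array a group and were described at 2-fold. Where the dim group was not above background, the fold is a lower bound, set against the higher of its own signal and the lowest signal above background on each array. The fits were tested on simulated data. Every gene of the set was accounted for, with values for those called or among the 10 largest differences, and listed genes were named, up to 4 a list, where they passed. The genes, lists and tests were chosen with earlier results of these data known. Promoters came from RefSeq (GRCm38.p6), matched by symbol. Alternatives covered normalization, background correction, offset, filter, choice of probe, series, 1.5-fold and each array left out. Unused columns of sample values numbered 0. Software was R 4.3.3, limma 3.58.1, statmod 1.5.0, Python 3.11.15, numpy 2.4.6, pandas 2.3.3 and matplotlib 3.10.9.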

Additional observations from a re-analysis of the deposited data

Results flagged for a closer look

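Thbs1 moved in opposite directions with LPS at 8 h in the cell types. It fell in fibroblasts, with a fitted difference of -0.77 over both genotypes (-0.63 in p50KO and -0.91 in WT cells), while in WT BMDM its measured difference was 2.7 on the log2 scale, from a level not above background at 0 h. Each BMDM time had 1 array and the arrays of the cell types were normalized apart, so the difference between cell types was not tested.

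The IFNARKO macrophages lie outside the comparisons of p50KO with WT, and in them Lox and Thbs1 had higher values at 3 h of LPS. Lox differed by 3.31 on the log2 scale between 3 h and 0 h of LPS and was at least 9.12-fold higher at 3 h, since it was not above background at 0 h. Thbs1 differed by 1.31 and was at least 1.77-fold higher at 3 h, for the same reason. In WT macrophages at 3 h Lox differed by 1.69, and Thbs1, not above background at 0 h, was at least 1.87-fold higher. With 1 array a condition there is no test, and whether the differences between IFNARKO and WT exceed the spread between arrays was not tested.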

How the results depend on the processing

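The number of matrix genes called between p50KO and WT fibroblasts (29) was 27 to 29 with 1 array left out and 19 with all 10 arrays and no series term, an alternative added after seeing the data. The mean of the probes turned Fbln1 to 0.75 and Fn1 to 0.20, and 14 of the 29 kept the call under every alternative. At 8 h of LPS the 16 calls became 5 to 12 with 1 array left out, 3 kept the call under every alternative, and Col5a1 turned to 0.027 on the values normalized by the authors. At 3 h the 1 call became 2 with the values normalized by the authors, an offset of 50, no background correction or no filter, 3 with detection on every array, and 0 to 1 with 1 array left out. At 1 h and for the interaction it was 0 to 0 with 1 array left out. With IFNb 2 genes passed 1.5-fold and 0 passed 2-fold. In BMDM the 1 p50 call became 2 with array medians made equal or a series block, and 0 with an offset of 50, no filter, detection on every array, or without the CpG, IFNb or LPS arrays. Of the 3 genes at 2-fold with LPS 1 remained with detection on every array, and 4 of the 13 genes were above background on every BMDM array. Except where arrays or genes were removed, the cause was not tested.

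Over all genes, calls between p50KO and WT fibroblasts went to 4511 in place of 6790 with detection on every array. They went to 4968 with all 10 arrays and no series term. At 1 h calls were 34 with detection on every array and 24 to 49 with 1 array left out (53 otherwise). With 1 array left out they were 639 to 1886 at 3 h (1756), 1831 to 3016 at 8 h (3327) and up to 98 for the interaction (0). Those past 1.5-fold were 1447 with IFNb (457 at 2-fold) and 4194 with LPS in WT BMDM (2284 at 2-fold). The p50 calls in BMDM were 27 with array medians made equal, 24 with no filter and 10 without the CpG arrays (41). At 3 h of LPS the higher calls were 37.9% of all calls, 21.6% with array medians made equal and 49.5% on the values normalized by the authors.

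No paired analysis was possible because the labels carry no replicate numbers, and the genotype fits were matched by time or condition only. Leaving out a 0 h array gave no interaction fit. Genes near background, such as Col5a2 and Col11a1 in fibroblasts and Col4a2 in macrophages, have imprecise differences.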
